A study of Mus musculus with 6 samples.

Results

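Described here are 42 genes that copy DNA or separate chromosomes, in mouse bone marrow stem cells. These cells carried an empty vector, or the BCR/ABL oncogene with or without imatinib treatment. The 18 S phase genes encode the replicative helicase, its loading and firing factors, the clamp and checkpoint of the replication fork, and enzymes of nucleotide supply. The 24 mitotic genes encode cyclins, mitotic kinases, spindle proteins and kinetochore proteins. Each gene was read from the array's probe sets that are annotated with its symbol alone, taking for each gene the probe set with the highest mean signal over 6 arrays. All 18 S phase genes and 23 of the 24 mitotic genes had such a probe set, so 41 genes of 18193 were measured. Ccnb1, which encodes cyclin B1, was not analysed here.

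The series asked which genes BCR/ABL regulates in haematopoietic stem cells. BCR/ABL, an always-active tyrosine kinase made by gene fusion, drives chronic myeloid leukaemia, and imatinib is a drug that inhibits it. Transcripts were measured on 6 Affymetrix arrays that form 3 groups of 2. The vector group held cells transduced with an empty GFP vector, the BCR/ABL group held cells transduced with BCR/ABL from untreated mice, and the BCR/ABL imatinib group held cells transduced with BCR/ABL from mice given imatinib. Cells of all 3 groups were sorted from long bone marrow as GFP positive, negative for lineage markers, and positive for c-Kit and Sca-1. The sources used here give neither the strain and age of the mice, nor the promoter that drove BCR/ABL, nor how much imatinib was given and for how long. Whether arrays within a group stem from different mice or from pooled cells is not stated, so a p-value here reflects the spread between these samples alone, and that spread may be technical.

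The deposited values are linear intensities, scaled by the authors so that the trimmed mean of every array is 500. The median intensity over the 41 genes ran from 1926 to 2868 on the 6 arrays. Of the markers that define the sort, Kit read between 1116 and 2659 and Cd34, a further progenitor marker, between 4375 and 6020. Ly6a, which encodes Sca-1, had no probe set of its own symbol alone and was not checked. Differences below are log2 differences of group means after quantile normalization of log2(intensity + 16), with 2 arrays in each group, and a gene was called at an adjusted p under 0.05 (limma, Benjamini-Hochberg over 35877 probe sets). In a bulk sample a smaller share of cycling cells and less of a transcript in each cycling cell cannot be told apart.

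A cell enters S phase once it has loaded the MCM helicase onto replication origins and then activated it with Cdc45 and the GINS complex. Genes for this machinery and for nucleotide supply are transcribed around the G1 to S boundary, largely through E2F factors. Mitotic genes are transcribed later, through Foxm1, B-Myb and the CHR promoter element, and their transcripts peak before and during mitosis. Most long-term haematopoietic stem cells in adult marrow are out of cycle, and their progenitors divide often, so the level of these transcripts in a sorted fraction depends on how many of its cells are in each phase.

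The promoters of 34 of the 42 genes were found in a RefSeq table of assembly GRCm38.p6, 15 of S phase genes and 19 of mitotic genes. Tpx2, Kif20a, Gins1, Ccna2, Foxm1, Mcm4, Gins2 and Aurkb were not in it. In the 250 bases before the start site, both strands were searched for the CHR word TTTGAA, for the CCAAT box, and for 4 spellings of the E2F site, which can overlap each other on opposite strands. The first spelling was TTGGCGC, the second was TTCGCGC, the third was TTCCCGC, and the last was TTGCCGC. The CHR word was in 7 of 19 mitotic promoters (36.8%) and 2 of 15 S phase promoters (13.3%), against 16.0% of all 32851 promoters of the table. An E2F word was in 6 of 15 S phase promoters (40.0%) and 3 of 19 mitotic promoters (15.8%), against 7.9% of all. CCAAT was in 16 of 19 mitotic promoters (84.2%) and 10 of 15 S phase promoters (66.7%), against 33.8% of all. Mcm7 and Prc1 had 2 start sites each and counted if either promoter held the word, while the shares of all count every promoter singly. Prc1 held the CHR word before its second start alone. A match is a description of the letters and not a binding site.

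The 120 bases before the start are shown for 5 genes that carry these words or that had low p-values below, each 5′ to 3′ on the gene's strand with the matched words in capitals. They are Cdk1 (chr10:69352913-69353032, minus strand), Cdc20 (chr4:118437344-118437463, minus strand), Plk1 (chr7:122159315-122159434, plus strand), Mcm6 (chr1:128359706-128359825, minus strand) and Rrm1 (chr7:102441575-102441694, plus strand).
Cdk1: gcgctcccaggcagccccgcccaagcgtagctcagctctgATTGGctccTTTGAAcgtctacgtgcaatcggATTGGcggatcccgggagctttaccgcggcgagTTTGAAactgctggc
Cdc20: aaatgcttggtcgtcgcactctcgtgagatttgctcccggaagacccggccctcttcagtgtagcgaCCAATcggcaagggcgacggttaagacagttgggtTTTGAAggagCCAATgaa
Plk1: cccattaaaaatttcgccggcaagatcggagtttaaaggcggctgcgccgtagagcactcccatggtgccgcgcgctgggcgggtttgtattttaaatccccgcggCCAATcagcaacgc
Mcm6: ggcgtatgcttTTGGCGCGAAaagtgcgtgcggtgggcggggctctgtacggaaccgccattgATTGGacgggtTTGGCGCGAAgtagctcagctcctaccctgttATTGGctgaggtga
Rrm1: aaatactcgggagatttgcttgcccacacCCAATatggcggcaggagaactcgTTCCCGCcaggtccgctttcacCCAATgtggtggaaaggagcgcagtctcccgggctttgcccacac
Cdk1 and Cdc20 hold CHR words within this window, 2 and 1 in number. Mcm6 holds a pair of 10-letter runs in which E2F words on opposite strands overlap, and Rrm1 holds 1 E2F word. Plk1 holds a single CCAAT word here.

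With imatinib, the genes of both classes lay below untreated BCR/ABL cells almost throughout, by modest amounts that passed no test gene by gene. Of the S phase genes, 17 of 18 were lower with a median difference of -0.31, and of the mitotic genes 21 of 23 were lower with a median of -0.23. Over all 18193 genes the median was -0.01 and 51% were lower. Both imatinib arrays lay below both BCR/ABL arrays for 9 of 18 S phase genes and 15 of 23 mitotic genes, against 26.7% of all genes. None of the 41 genes was called (limma, smallest adjusted p = 0.121, for Gins2), and 0% of all genes were called in this comparison. An unadjusted p under 0.05 with a lower level was found for 7 S phase genes and 9 mitotic genes, against 9.13% of all genes. All 41 genes lay at or above the 50th percentile of mean signal over the probe sets, and among the 10094 genes that did so these shares were 50.3% lower, 31.6% with both arrays below and 13.1% with an unadjusted p under 0.05 and a lower level. The 3 genes with a difference above 0 were Mcm4 (0.15), Birc5 (0.06) and Nusap1 (0.09).

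One imatinib array carried much of the S phase difference. Without imatinib replicate 2 the S phase median was -0.05 with 13 of 18 genes lower, and without imatinib replicate 1 it was -0.55. The mitotic median was -0.20 without replicate 2, with 18 of 23 genes lower, -0.44 without imatinib replicate 1 and -0.36 without BCR/ABL replicate 1. With each array centred on its own median in place of quantile normalization, all genes shifted by a median of -0.27, the S phase median was -0.65 and the mitotic median -0.585. Relative to the shift of all genes these were -0.38 and -0.31. On that scaling 4 S phase and 4 mitotic genes were called lower, against 3.79% of all genes.

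BCR/ABL cells without imatinib did not stand clearly apart from vector cells in either class. The S phase median was -0.08, with 11 genes lower and 7 higher, and the mitotic median was -0.08, with 13 lower and 10 higher. Over all genes the median was 0.01 and 47.6% were lower. Both BCR/ABL arrays lay below both vector arrays for 7 S phase and 8 mitotic genes, against 20.1% of all genes, and above both for 3 S phase and 5 mitotic genes, against 23.9%. None of the 41 was called (limma, smallest adjusted p = 0.354, for Nusap1), where 0.104% of all genes were called. An unadjusted p under 0.05 was found for Mcm4, Nusap1, Birc5 and Kif11, which were lower, against 5.55% of all genes, and Cdc45, which was higher, against 7.16%. With array medians all genes shifted by 0.20 and the class medians turned to 0.11 and 0.12, which relative to that shift were -0.10 and -0.08. The mitotic median was 0.03 without vector replicate 1, and the S phase median was 0.03 without BCR/ABL replicate 1. Without BCR/ABL replicate 2 the S phase median was -0.16 with 13 of 18 genes lower, and the mitotic median was -0.10.

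The S phase genes higher in BCR/ABL than in vector cells were Cdc45, Gins1, Gins2, Pcna, Tyms, Rrm1 and Tk1, with differences from 0.02 to 0.48. The mitotic ones were Ccnb2, Cdk1, Plk1, Aurka, Aurkb, Kif20a, Ndc80, Bub1, Ttk and Cdc20, from 0.02 to 0.22. By role, 6 of 7 chromosome and spindle genes were lower in BCR/ABL cells, 2 of 5 mitotic kinases and passenger genes, and 3 of 7 kinetochore and checkpoint genes, against the 47.6% of all genes. All 6 MCM subunits were lower by their brightest probe sets (median -0.14), which are all of a kind whose probes also match other sequences. With the brightest set of another kind, 5 of the 6 were higher and the median was 0.085.

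Against vector cells, imatinib-treated BCR/ABL cells had lower mean levels of all 41 measured genes. The 18 S phase genes had a median difference of -0.28 and the 23 mitotic genes of -0.34, against a median of -0.001 and 50.2% lower over all genes. The groups did not overlap for 12 S phase and 20 mitotic genes, against 22.3% of all genes with both imatinib arrays below. An unadjusted p under 0.05 was found for 8 S phase and 10 mitotic genes, against 7.7% of all genes. None was called (limma, smallest adjusted p = 0.162, for Chek1), where 0.0824% of all genes were called. This comparison shares its imatinib arrays with the one against BCR/ABL. Without imatinib replicate 2, 15 of 18 S phase genes were lower with a median of -0.16, and 23 of 23 mitotic genes with a median of -0.30. Without imatinib replicate 1 the S phase median was -0.54.

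**Figure D1:**
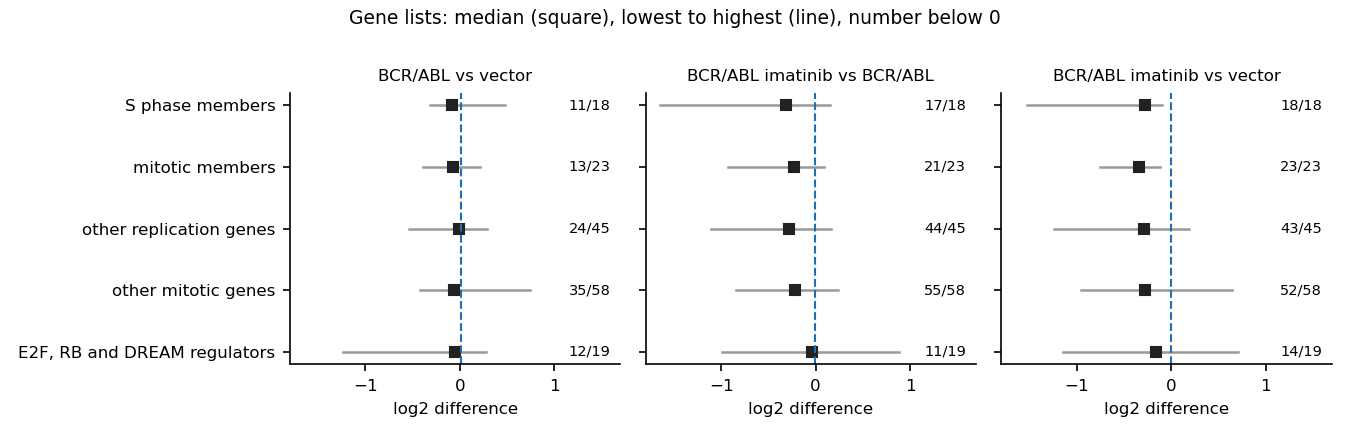
Median log2 difference (square) and the range from lowest to highest gene (line) for the 18 S phase genes, the 23 mitotic genes and 3 further lists, in the 3 comparisons, with the number below 0 over the number measured and the median of all genes as a dashed line. The S phase and mitotic medians sit at -0.08 for BCR/ABL against vector and at -0.31 and -0.23 for imatinib against BCR/ABL.

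For the helicase subunits Mcm2 to Mcm7 the difference with imatinib depended on the probe set. By the brightest sets, all _s_at or _x_at sets, their median difference from BCR/ABL was -0.11, 5 of 6 were lower, and for none of the 6 did both imatinib arrays lie below both BCR/ABL arrays. By the brightest set of another kind the median was -0.33, 6 of 6 were lower, and both imatinib arrays lay below both BCR/ABL arrays for 5 of the 6. The values that follow are of the brightest sets. Mcm2 read 3155 and 2849 on the vector arrays, 2222 and 2669 on the BCR/ABL arrays, and 2435 and 1503 with imatinib. Its level was highest in vector cells, and the imatinib arrays disagreed with each other more than they differed from BCR/ABL. Mcm3 read 5565 and 5563 with vector, 4779 and 5493 with BCR/ABL, and 4872 and 4355 with imatinib. Mcm4 read 5651 and 6375 with vector, 4778 and 5163 with BCR/ABL, and 5656 and 5014 with imatinib. For both genes the deposited values of imatinib and BCR/ABL overlapped, and for Mcm4 normalization put both imatinib arrays above.

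The other 3 subunits showed the same split between arrays. Mcm5 read 4062 and 3458 with vector, 2806 and 4369 with BCR/ABL, and 3786 and 2346 with imatinib. Mcm6 read 5219 and 5554 with vector, 4474 and 5048 with BCR/ABL, and 4602 and 3982 with imatinib. Mcm7 read 4531 and 5824 with vector, 4270.5 and 5292 with BCR/ABL, and 4882 and 3888 with imatinib. For all 3 the first imatinib array lay between the BCR/ABL arrays and the second lay below both. The differences of the 6 subunits from BCR/ABL ran from -0.32 for Mcm2 to 0.15 for Mcm4, with adjusted p from 0.527 upward in limma. By the other kinds of set they ran from -0.76 for Mcm2 to -0.18 for Mcm6, with adjusted p from 0.16 upward. Between BCR/ABL and vector the difference was -0.25 for Mcm4 (SE 0.09, adjusted p = 0.399) and -0.17 for Mcm6, with both BCR/ABL arrays below both vector arrays for each. The other bright set gave 0.065 for Mcm4 and 0.010 for Mcm6, with overlapping arrays.

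The factors that load and fire the helicase were lower with imatinib in 6 of 6 cases, with a median of -0.56. Gins2, a subunit of the GINS complex, read 1446 and 1659 with vector, 1595 and 1929 with BCR/ABL, and 995 and 932 with imatinib. Both imatinib arrays lay below the other 4, and the difference from BCR/ABL was -0.85 (SE 0.15, adjusted p = 0.121). For Gins2 array medians, which shifted all genes by a median of -0.27, gave an adjusted p of 0.0231 (limma). Its partner Gins1 read 2868 and 3940.1 with vector, 3299 and 3909 with BCR/ABL, and 2398 and 2315 with imatinib. It too was lowest on both imatinib arrays, with a difference of -0.57 (SE 0.16, adjusted p = 0.207).

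Cdc45, which joins GINS and MCM in the active helicase, had a pattern of its own among these factors. It read 598 and 729.8 with vector, 961 and 920.2 with BCR/ABL, and 505 and 635 with imatinib. The BCR/ABL arrays lay above the other 4, by 0.48 over vector (SE 0.19, adjusted p = 0.426), and imatinib lay below BCR/ABL with a difference of -0.75 (SE 0.19, adjusted p = 0.174). Imatinib and vector arrays overlapped. For the mean of all Cdc45 probe sets the difference of BCR/ABL from vector was -0.03.

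Cdt1, which loads MCM with Cdc6, read 4514 and 3704 with vector, 3496 and 3494 with BCR/ABL, and 4171 and 2700.1 with imatinib. Its imatinib arrays lay on either side of BCR/ABL, and the difference was -0.01. Cdc6 (-0.31) overlapped between groups as well, and Mcm10 (-0.56), which helps activate the helicase, did not.

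At the fork, both genes were lower with imatinib on both arrays by their brightest sets. Chek1, the kinase of the replication checkpoint, read 1896 and 2036 with vector, 1614 and 1859 with BCR/ABL, and 1303 and 1174 with imatinib. By this _s_at set the 3 groups did not overlap, in the order vector, BCR/ABL, imatinib. The difference was -0.46 from BCR/ABL (SE 0.13, adjusted p = 0.199) and -0.67 from vector (SE 0.13, adjusted p = 0.162), the lowest adjusted p of the 41 genes between imatinib and vector. All 5 Chek1 sets were lower with imatinib than with BCR/ABL. The second set (mean intensity 653) overlapped in all 3 comparisons, and in the third (597) vector and BCR/ABL overlapped. The fourth (237) kept the order without overlap, and the last was very dim (7.4). Pcna, the sliding clamp, differed from BCR/ABL by -0.24.

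Among the genes of nucleotide supply, all 4 were lower with imatinib, with a median of -0.37. Rrm1, the large subunit of ribonucleotide reductase, read 3733 and 3652 with vector, 3684 and 3849 with BCR/ABL, and 3171 and 2389 with imatinib. The vector and BCR/ABL arrays lay close together and both imatinib arrays lay below them, with a difference of -0.42 from BCR/ABL (SE 0.14, adjusted p = 0.248). Tyms, thymidylate synthase, read 291 and 191 with vector, 245 and 236 with BCR/ABL, and 78.6 and 79.2 with imatinib. Its difference of -1.65 (SE 0.32, adjusted p = 0.128) was the largest in size of the 41 genes, on a dim probe set. The other 3 Tyms probe sets were dimmer still, with differences from -0.42 to 0.10, and a probe set annotated to Tyms and a second symbol was not used. Tk1, thymidine kinase, differed by -0.33.

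**Figure D2:**
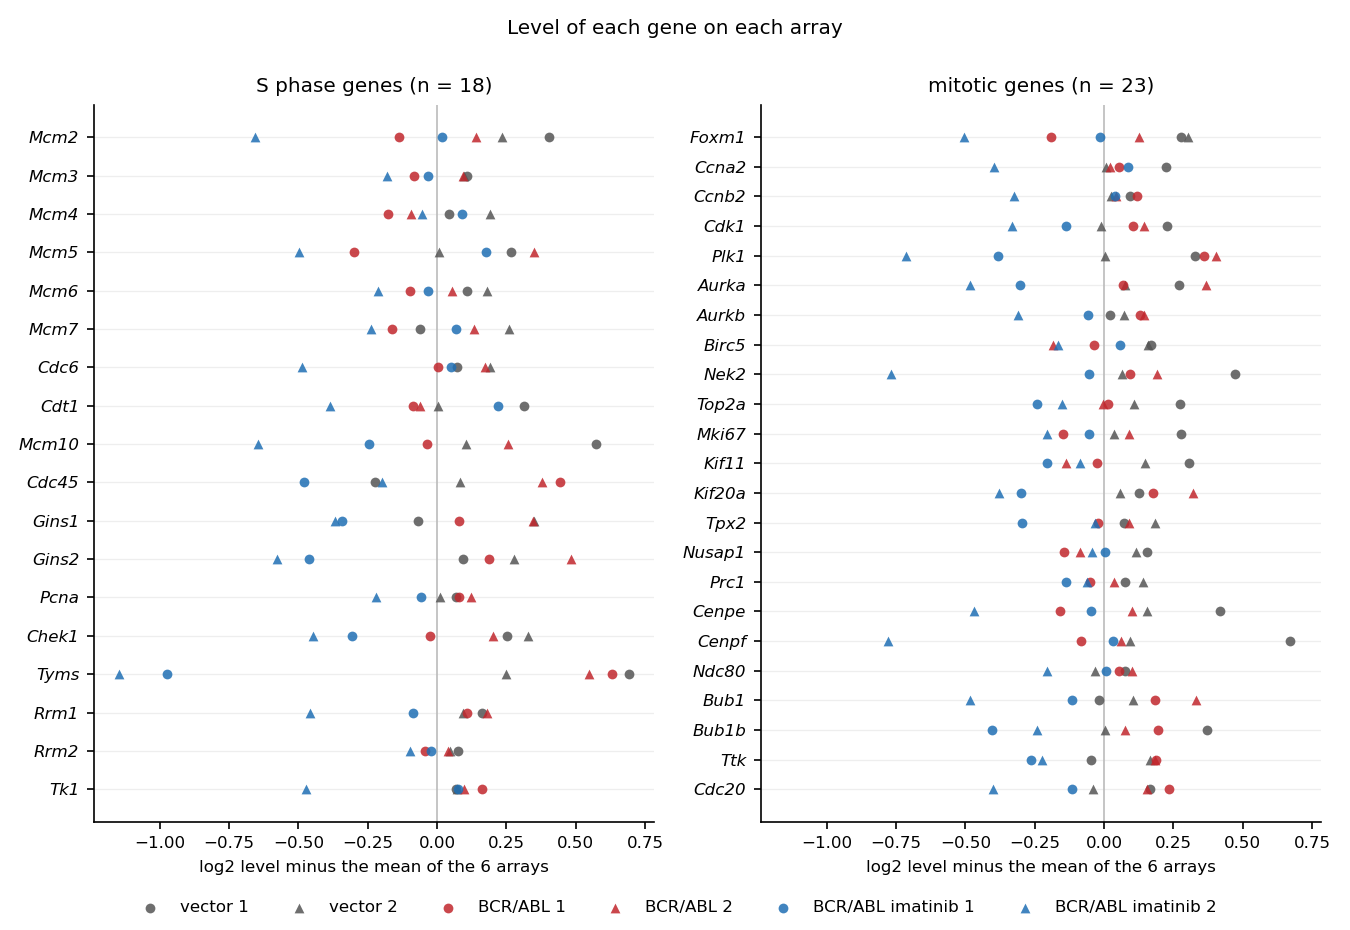
Level of each gene on each of the 6 arrays (log2, minus the gene's mean over the arrays), S phase genes on the left and mitotic genes on the right, circles for replicate 1 and triangles for replicate 2. Imatinib points lie to the left for most genes. Imatinib replicate 2 lies below imatinib replicate 1 for 17 of 18 S phase and 17 of 23 mitotic genes, against 52.3% of all genes.

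The cyclins and Cdk1 that start mitosis were lower with imatinib in 4 of 4 measured cases, Foxm1 included, with a median of -0.22. Cdk1, the kinase of mitotic entry whose promoter is shown above, read 5496 and 4666 with vector, 4951 and 5181 with BCR/ABL, and 4141 and 3552 with imatinib. Both imatinib arrays lay below the other 4, with a difference of -0.36 from BCR/ABL (SE 0.11, adjusted p = 0.238). Ccna2, cyclin A2, read 5176 and 4487 with vector, 4536 and 4479 with BCR/ABL, and 4569 and 3210.2 with imatinib. Ccnb2, cyclin B2, read 3008 and 2919.7 with vector, 3158 and 2975 with BCR/ABL, and 2932 and 2240.1 with imatinib. For both cyclins, by these probe sets, the first imatinib array was close to BCR/ABL and the second was the lowest of the 6. A second Ccna2 set read 3329 and 2718 with vector, 3071 and 3127 with BCR/ABL, and 2130 and 1693 with imatinib. There both imatinib arrays lay below the other 4, with a difference of -0.67 from BCR/ABL (SE 0.15, adjusted p = 0.147).

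The kinases that drive mitosis had a median difference of -0.55 with Birc5, and 4 of these 5 genes were lower. Plk1, which acts at centrosomes, kinetochores and the midzone, read 828 and 653 with vector, 863 and 889 with BCR/ABL, and 511 and 426 with imatinib. BCR/ABL lay highest and imatinib lowest with no overlap of the 3 groups. The difference of imatinib from BCR/ABL was -0.93 (SE 0.20, adjusted p = 0.142), and that of BCR/ABL from vector was 0.22. With array medians, which shifted all genes by -0.27 in the former comparison, the adjusted p for Plk1 was 0.0331 (limma). Aurka, the Aurora kinase of the spindle poles, read 1541 and 1346 with vector, 1386 and 1685 with BCR/ABL, and 1048 and 935 with imatinib. Vector and BCR/ABL overlapped, and both imatinib arrays lay below them, with a difference of -0.61 from BCR/ABL (SE 0.16, adjusted p = 0.183).

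Birc5, the survivin subunit of the chromosomal passenger complex, had another order. It read 10012 and 9899 with vector, 8079.95 and 7592 with BCR/ABL, and 8563 and 7521 with imatinib. The vector arrays lay above all others, the difference of BCR/ABL from vector was -0.27 (SE 0.09, adjusted p = 0.384), and imatinib differed from BCR/ABL by 0.06. Aurkb, the kinase of the same complex, was at -0.32 and Nek2, a centrosome kinase, at -0.55.

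Chromosome and spindle genes differed less, with a median of -0.10 and 6 of 7 lower. Kif20a, a kinesin of the central spindle, read 1437 and 1375 with vector, 1533 and 1685 with BCR/ABL, and 1085 and 1031 with imatinib. BCR/ABL lay highest and imatinib lowest without overlap, and the difference of imatinib from BCR/ABL was -0.59 (SE 0.12, adjusted p = 0.139). Kif11, the motor that builds the bipolar spindle, read 3224 and 2929 with vector, 2632 and 2382 with BCR/ABL, and 2264 and 2418 with imatinib. Here the step lay between vector and BCR/ABL, at -0.31 (SE 0.11, adjusted p = 0.387), and imatinib overlapped BCR/ABL. The other 2 Kif11 sets of at least 200 gave -0.048 and 0.14 for BCR/ABL against vector, and -0.11 and -0.51 for imatinib against BCR/ABL.

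Top2a, the topoisomerase that untangles sister chromatids, read 7526 and 6671 with vector, 6040.1 and 6109 with BCR/ABL, and 4978 and 5239 with imatinib. Its levels lay in the order vector, BCR/ABL, imatinib without overlap, with differences of -0.19 and -0.20. Dimmer Top2a sets gave -1.22 and -0.37 for BCR/ABL against vector, and 0.04 and 0.23 for imatinib against BCR/ABL. Nusap1, a microtubule-binding spindle protein, read 4019 and 3969 with vector, 3341 and 3408 with BCR/ABL, and 3601 and 3395 with imatinib. Its vector arrays lay above the other 4, and the difference of BCR/ABL from vector was -0.25 (SE 0.08, adjusted p = 0.354). Mki67, the Ki-67 proliferation antigen that coats mitotic chromosomes, read 6774 and 5748 with vector, 4933 and 5952 with BCR/ABL, and 5182 and 4623 with imatinib. Its imatinib and BCR/ABL arrays overlapped, at -0.10. Prc1, which cross-links midzone microtubules, read 4489 and 4801 with vector, 4178 and 4429.8 with BCR/ABL, and 3856 and 3962 with imatinib. Its groups did not overlap and lay in the same order as those of Top2a. Tpx2, a spindle assembly factor, was at -0.20, and at -0.51 by its second set. The second Nusap1 set, which was dimmer, gave -0.28 for imatinib against BCR/ABL.

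All 7 kinetochore and checkpoint genes were lower with imatinib than with BCR/ABL, with a median of -0.43. Bub1, a checkpoint kinase, read 1604 and 1771 with vector, 1916 and 2071 with BCR/ABL, and 1514 and 1168 with imatinib. The 3 groups did not overlap, BCR/ABL being highest by 0.22 over vector and imatinib differing from BCR/ABL by -0.56 (SE 0.16, adjusted p = 0.199). A second and dimmer Bub1 set read 161 and 320 with vector, 237 and 275 with BCR/ABL, and 286 and 221 with imatinib. There all 3 groups overlapped. Bub1b, which encodes the checkpoint protein BubR1, read 2153 and 1671 with vector, 1969 and 1775 with BCR/ABL, and 1263 and 1400.3 with imatinib. Ttk, the checkpoint kinase Mps1, read 914 and 1063 with vector, 1108 and 1098 with BCR/ABL, and 799.5 and 835 with imatinib. In both genes the imatinib arrays lay below the other 4, with differences of -0.46 and -0.43 from BCR/ABL. A second and dimmer Ttk set gave 0.14, and its difference of BCR/ABL from vector was -0.96, where the brightest gave 0.13.

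Cdc20, the activator of the anaphase-promoting complex, read 2783 and 2450.5 with vector, 2996 and 2810.1 with BCR/ABL, and 2295 and 1854 with imatinib. Both imatinib arrays were lowest, with a difference of -0.45 from BCR/ABL (SE 0.14, adjusted p = 0.219). Cenpe, a kinetochore motor, read 1219.8 and 1013 with vector, 825 and 998 with BCR/ABL, and 893 and 684 with imatinib. Its imatinib and BCR/ABL arrays overlapped, at -0.23, and vector lay above both groups. Cenpf and Ndc80, further kinetochore proteins, were at -0.36 and -0.18.

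**Figure D3:**
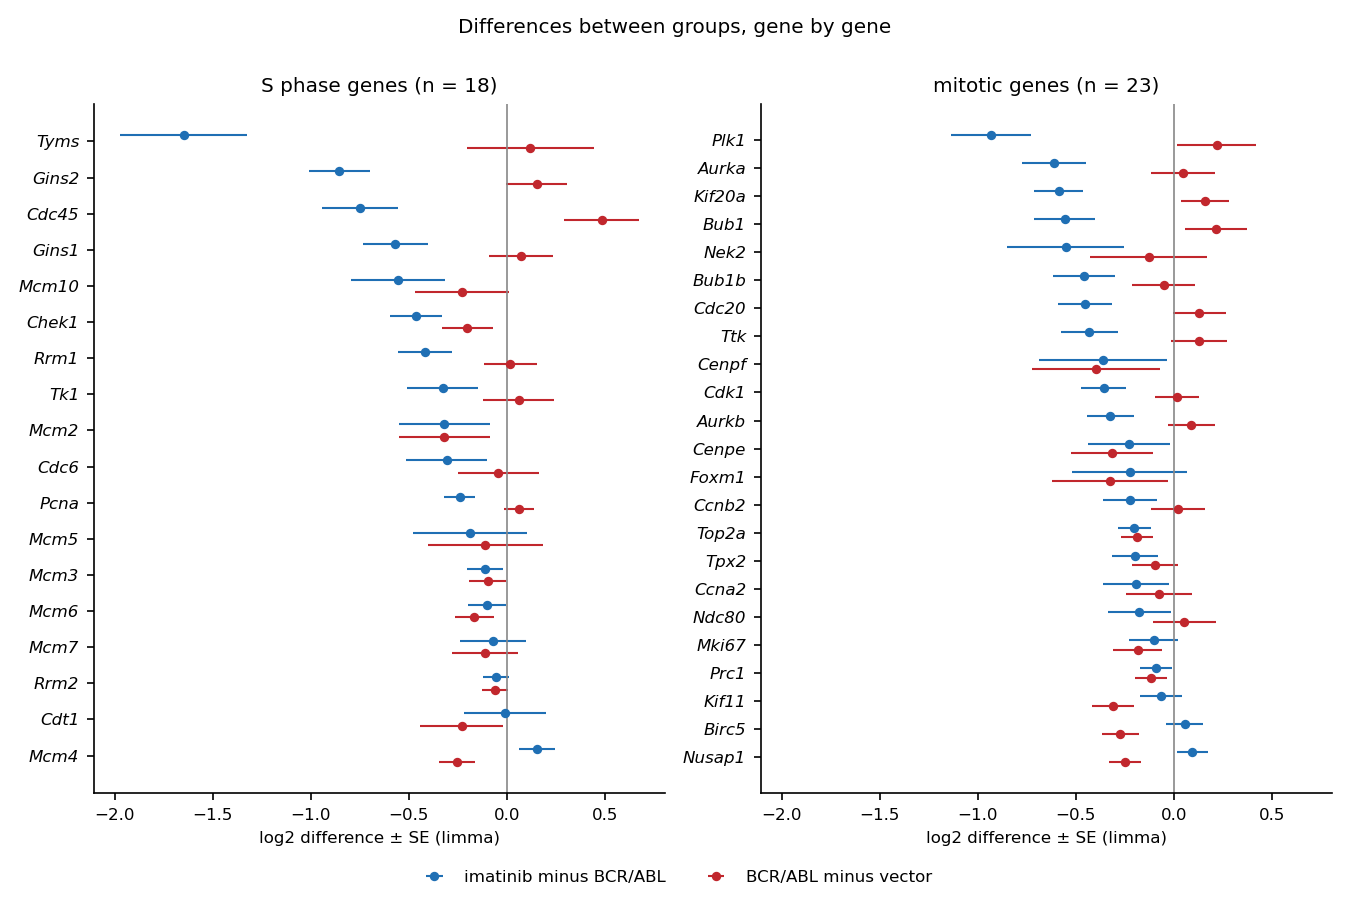
Log2 difference with its standard error (limma) for each gene, imatinib minus BCR/ABL in blue and BCR/ABL minus vector in red, ordered by the first. Tyms (-1.65), Plk1 (-0.93) and Gins2 (-0.85) lie farthest left in blue, and Cdc45 (0.48) farthest right in red.

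The size of the S phase difference depended on which probe set stood for a gene. The 41 genes have 99 probe sets with their symbol alone, and of the 78 with a mean intensity of at least 200, 74 were lower with imatinib than with BCR/ABL (median -0.36). Of the 21 dimmer sets 13 were lower (median -0.12), which makes 87 of all 99 (median -0.31). Identifiers that end in _s_at or _x_at mark probe sets whose probes also match other transcripts or sequences. Such a set was the brightest for 8 of the 18 S phase genes, the 6 MCM subunits, Chek1 and Rrm2, and these 8 had a median of -0.11, against -0.49 for the other 10. Within the 12 genes of both classes whose brightest set was of this kind and that had another set, the other set was lower in 10, with a median of -0.40 against -0.15. This choice was looked at after the values were seen.

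Rrm2, the small subunit of ribonucleotide reductase, shows the gap. Its brightest probe set, an _x_at set, read 8496 and 8419 with vector, 7449.7 and 8095 with BCR/ABL, and 7577 and 7239.97 with imatinib, a difference of -0.06. The next read 2122 and 1660.2 with vector, 2172 and 2103 with BCR/ABL, and 1588 and 1089.5 with imatinib, a difference of -0.68. The third read 1295 and 1171 with vector, 1666 and 1766 with BCR/ABL, and 765 and 660.5 with imatinib. There the difference was -1.26 (SE 0.15, adjusted p = 0.108), the lowest adjusted p of the 99 probe sets. For Mcm4 the _x_at set gave 0.15 and the other set -0.38, with imatinib at 3653 and 3145 below BCR/ABL at 4798 and 4218.

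With the brightest probe set of the other kinds for each gene, 18 of 18 S phase genes were lower with imatinib (median -0.45) and 20 of 22 mitotic genes (median -0.29). Without imatinib replicate 2 these became 16 of 18 (median -0.30) and 17 of 22 (median -0.16). Between BCR/ABL and vector this choice left 5 of 18 S phase genes below 0 in place of 11, with a median of 0.06.

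**Figure D4:**
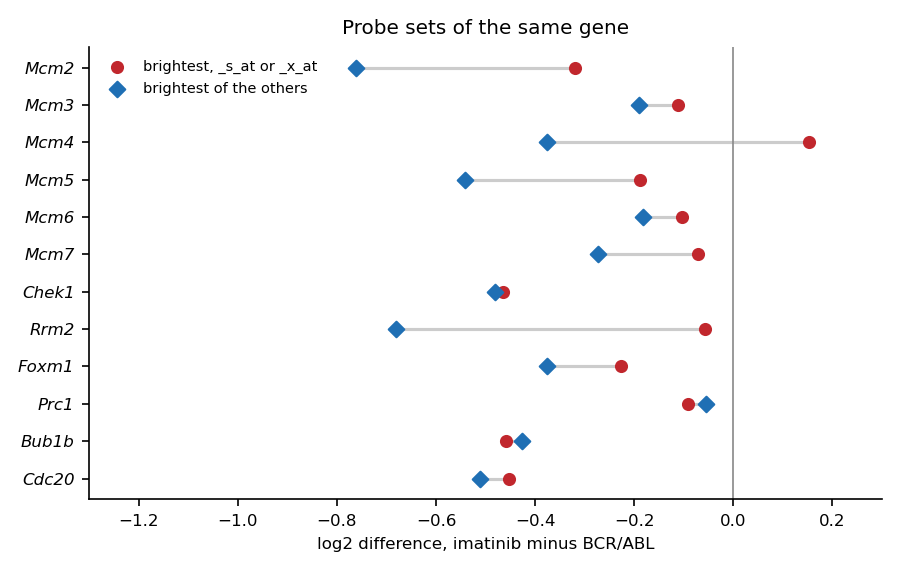
Log2 difference of imatinib minus BCR/ABL for 12 genes measured by 2 kinds of probe set, the brightest of the gene, an _s_at or _x_at set (red circle), and the brightest of its other sets (blue diamond). The blue diamond lies to the left for 10 of the 12 genes, by most for Rrm2 and Mcm4.

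Between the 2 arrays of a group, most genes differed in one direction in some groups. Imatinib replicate 2 was below replicate 1 for 17 of 18 S phase genes (median -0.18) and 17 of 23 mitotic genes (median -0.21). Over all genes the share was 52.3%. BCR/ABL replicate 2 was above replicate 1 for 15 of 18 S phase genes (median 0.16) and 15 of 23 mitotic genes (median 0.05). Here the share of all genes was 47.9%. Vector replicate 2 was below replicate 1 for 9 of 18 S phase genes and 17 of 23 mitotic genes, against 47% of all genes. The 3-prime to 5-prime signal ratio of the actin control was 1.81 and 1.62 with vector, 1.48 and 1.30 with BCR/ABL, and 1.74 and 1.55 with imatinib. That of the Gapdh control was 1.556 and 1.365 with vector, 1.342 and 1.276 with BCR/ABL, and 1.453 and 1.386 with imatinib. Both ratios were higher on replicate 1 in every group, and their part in the differences was not tested.

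The rest of the replication and mitosis machinery followed the same order. Of 48 other replication genes, 45 were measured, and 44 of them were lower with imatinib than with BCR/ABL, with a median of -0.28. Of 58 other mitotic genes, 55 were lower, with a median of -0.22. Over all genes 51% were lower. None was called (limma), and an unadjusted p under 0.05 was found for 17 and 11 of the lower ones, against 9.13% of all genes. These lists use the same imatinib arrays. Replicate 2 lay below replicate 1 for 37 of 45 replication and 45 of 58 mitotic genes, against 52.3% of all genes. Rfc5, a subunit of the clamp loader, read 1869 and 2021 with BCR/ABL and 1320.4 and 1333 with imatinib, a difference of -0.52. Dut, which removes dUTP from the nucleotide pool, was at -0.34 and Orc2, a subunit of the origin recognition complex, at -0.61. Nuf2 (-0.56) and Spc24 (-0.57), subunits of the Ndc80 complex, and Cenpm (-0.85), a centromere protein, had the lowest p-values of the mitotic list. The exceptions above 0 were Rfc2 (0.16), Cdc25b (0.24), Cenpc1 (0.13) and Kif23 (0.11).

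The regulators of these genes were mixed. Of 19 E2F, RB and DREAM genes 11 were lower with imatinib than with BCR/ABL (median -0.03), against 51% of all genes. Mybl2, which encodes B-Myb, a driver of mitotic transcription, read 537 and 611 with BCR/ABL and 417 and 220.3 with imatinib. E2f4, the E2F of the repressive DREAM complex, was at -0.85 and E2f7, a repressor E2F, at -0.49. On the higher side stood Rbl2, the p130 pocket protein of DREAM in resting cells, which read 527 and 510 with BCR/ABL and 916 and 921 with imatinib. Tfdp2, a dimer partner of E2F factors, was at 0.89 and Lin37, a DREAM subunit, at 0.37. None of the 19 was called, the smallest adjusted p being 0.139 for Tfdp2 (limma).

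Markers of the sorted cells and of other cells differed between the groups as well. The 9 measured stem and progenitor markers of 11 were all higher with imatinib than with BCR/ABL, with a median of 0.61, and none was called. Their summed intensity was 13723 and 19656 with vector, 14804 and 13436 with BCR/ABL, and 18631 and 23519 with imatinib. After normalization, imatinib replicate 2 lay above replicate 1 for 9 of 9, against 47.6% of all genes. It was the array on which the replication genes were lowest. For Kit the normalized levels were 11.384 and 11.386, and the deposited 2659 and 2602 went the other way. Vector replicate 2 lay above replicate 1 for 8 of 9 markers, against 52.9% of all genes, and BCR/ABL replicate 2 for 3 of 9, against 47.9%. Between the vector arrays the S phase genes split 9 and 9, and 17 of 23 mitotic genes were lower on replicate 2. Between the BCR/ABL arrays 15 of 18 S phase and 15 of 23 mitotic genes were higher on replicate 2. The 9 mast cell and basophil markers measured of 10 summed to 16086 and 11337 with vector, 42457 and 41867 with BCR/ABL, and 63757 and 55082 with imatinib, with 9 of 9 higher in BCR/ABL than in vector cells. Hdc, the histamine-forming enzyme, was called in that comparison (limma, adjusted p = 0.0236), against 0.104% of all genes. Between imatinib and vector cells 9 of 9 were higher too. There Hdc (adjusted p = 0.0363) and Tpsab1 (adjusted p = 0.0484) were called (limma), against 0.0824% of all genes. Tpsab1 read only 0.68 and 0.46 on the vector arrays. The 9 megakaryocyte markers summed to 1961 and 2083 with vector, 4437 and 3605 with BCR/ABL, and 7195 and 6896 with imatinib. Of these, 8 of 9 were higher in BCR/ABL than in vector cells and 7 of 9 higher with imatinib than with BCR/ABL, with none called, and Gp6 was below 16 on all 6 arrays. The 8 stromal and endothelial markers summed to 1249 and 1152 with vector, 1451 and 1226 with BCR/ABL, and 1939 and 2260.4 with imatinib, though 4 of 8 were higher and 4 lower with imatinib than with BCR/ABL, and Col3a1 was below 16 on all 6.

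The 12 B cell markers measured of 13 summed to 25426 and 5101 with vector, 1363 and 2521 with BCR/ABL, and 730 and 1839 with imatinib. Pax5 was below 16 on all 6 arrays. The 9 erythroid markers measured of 10 summed to 15128 and 7923 with vector, 10333 and 8163 with BCR/ABL, and 15416 and 8131 with imatinib. The 12 granulocyte markers of 13 summed to 80695 and 51258 with vector, 79567 and 90813 with BCR/ABL, and 86585 and 92036 with imatinib. Monocyte and macrophage markers (8 of 9) summed to 17690 and 10023 with vector, 10667 and 13435 with BCR/ABL, and 13416 and 12652 with imatinib. T and NK markers (8 of 10) summed to 5503 and 5118 with vector, 4756 and 4878 with BCR/ABL, and 3960 and 4993 with imatinib. Most of each sum was Nkg7, at 4490 and 5010 with vector, 4709 and 4794 with BCR/ABL, and 3879 and 4879 with imatinib. Of the 8, 7 were lower in BCR/ABL than in vector cells (median -0.93), against 47.6% of all genes. Between imatinib and vector cells 8 of 8 were lower (median -0.80), against 50.2%, and between imatinib and BCR/ABL 3 of 8, with none called. Hba-a1, an erythroid marker, and Cd8b1, a T cell marker, were below 16 on all 6 arrays. Vector replicate 1 had the higher sum of the 2 vector arrays for each list of this paragraph. It was also the higher for 17 of 23 mitotic genes, against 47% of all genes. Without it the mitotic genes of BCR/ABL and vector cells differed by a median of 0.03, and those of imatinib and vector cells by -0.31. The part of the marker signals of this and the preceding paragraph in the replication and mitosis differences was not tested.

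**Figure D5:**
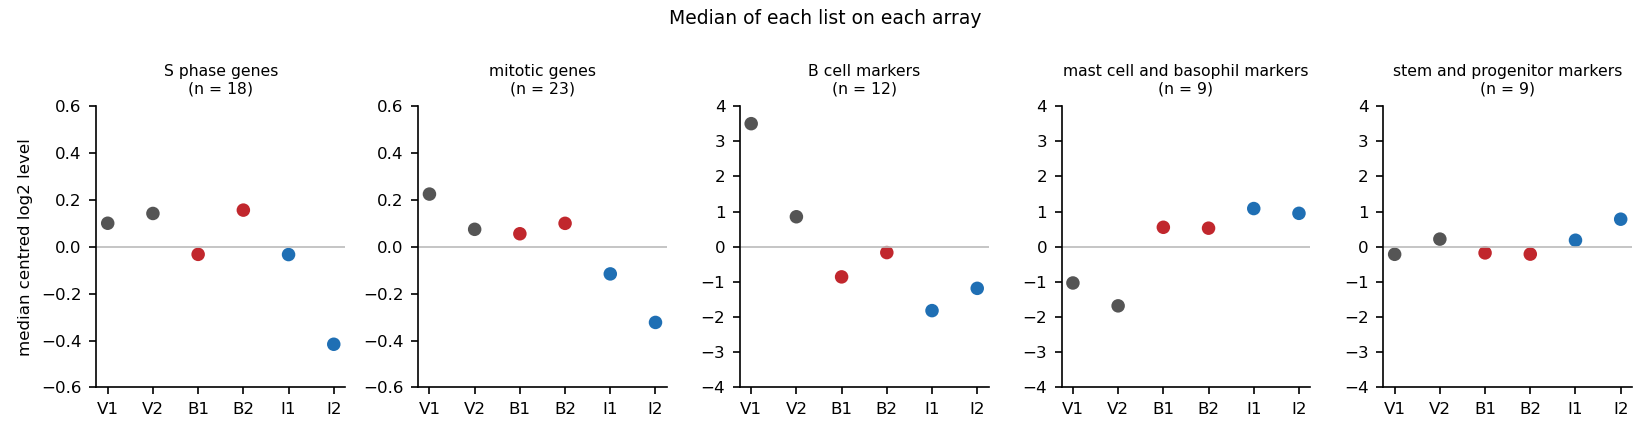
Median level of 5 lists on each array (log2, each gene centred on its mean over the arrays), V for vector, B for BCR/ABL and I for imatinib with the replicate number. The vertical axis of the 3 marker panels spans a wider range than that of the S phase and mitotic panels, where imatinib replicate 2 is lowest at -0.42 and -0.32.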

How the data were processed

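Expression was measured on 6 arrays, grouped by sample title. The authors deposited linear intensity values, 1 per probe set, made with Affymetrix Expression Console and MAS5 per the submitters' processing notes, which name no version in the form used here. The series text names a whole-transcript array, but the deposited probe set identifiers belong to an older 3-prime mouse array and were used as such, so which labelling applied is not settled. Of 45101 probe sets, 64 controls were left out. The platform annotation gave 1 symbol to 34945 probe sets, several to 932 and none to 9160, and 34741 were matched to RefSeq (GRCm38.p6), which changed 0 symbols.

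Values were taken as log2(intensity + 16), so differences of dim genes are understated, and quantile normalized. The linear model covered all 6 arrays without covariates (limma 3.58.1 in R 4.3.3, lmFit and eBayes with trend=TRUE, two-sided, 3 residual and 2.97 prior degrees of freedom), with Benjamini-Hochberg adjustment over 35877 probe sets. The number of arrays limits the precision. The script was tested on simulated data with added changes of 3 log2 units, larger than any difference of an S phase or mitotic gene here. That test does not measure how well smaller differences are found. Lists were described by counts and medians, each gene by its brightest probe set with 1 symbol.

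Per-array levels were given for the 6 S phase and 8 mitotic genes with the smallest p in imatinib against BCR/ABL and in BCR/ABL against vector, for Mcm2 to Mcm7, and for Ccna2, Ccnb2 and Cdk1; of the other lists the 3 genes with the smallest p in each direction were named. Rrm2, Hdc, Tpsab1 and Nkg7 were named after their values were seen. The members and lists were chosen with earlier results of these data known.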

Additional observations from a re-analysis of the deposited data

How the results depend on the processing

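Over 16 alternatives the medians of imatinib against BCR/ABL stayed below 0, from -0.65 to -0.047 (S phase) and -0.585 to -0.16 (mitotic). Those against vector ran from -0.54 to -0.16 and -0.47 to -0.29. Not all of the 16 could move a median. Leaving out the dimmer probe sets, the variance prior without a trend and the replicate block kept the main medians by construction. So did leaving out an array of the group outside the comparison. With array medians the probe sets called were 298, 1200 and 275 in BCR/ABL against vector, imatinib against BCR/ABL and imatinib against vector, where quantiles gave 22, 0 and 16. With quantiles those of imatinib against vector split into 15 higher and 1 lower. With array medians they split into 201 higher and 74 lower, and those of imatinib against BCR/ABL into 67 higher and 1133 lower. There the class medians of BCR/ABL against vector were 0.11 and 0.12 (3 and 7 genes below 0), those of imatinib against BCR/ABL -0.65 and -0.585, with 4 and 4 genes called, and the mitotic median of imatinib against vector was -0.47. The signs then turned for Mcm6 (0.033), Chek1 (0.032), Mki67 (0.0089) and Prc1 (0.10) in BCR/ABL against vector, and for Mcm4 (-0.23), Birc5 (-0.29) and Nusap1 (-0.28) with imatinib, on a scaling that shifted all genes. Adding 1 gave 83, 3 and 78 calls, adding 64 gave 3 for imatinib against vector, leaving out the dimmer part of the probe sets gave 141, 200 and 184 with 0 members among them, and a variance prior without a trend gave 0 and 0 in the comparisons with vector. The mean of all probe sets of a gene gave 38 calls for BCR/ABL against vector and turned Cdc45 there (-0.029), and Mcm4 (-0.11) and Nusap1 (-0.10) with imatinib. Without _s_at and _x_at sets 5 S phase genes were below 0 in BCR/ABL against vector, with or without imatinib replicate 2.

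Leaving out 1 array gave 0 to 38 calls in BCR/ABL against vector and 0 to 54 in imatinib against vector. The S phase medians ran from -0.55 to -0.047 (imatinib against BCR/ABL) and -0.54 to -0.16 (against vector), and the mitotic ones from -0.44 to -0.20 (imatinib against BCR/ABL) and -0.10 to 0.033 (BCR/ABL against vector). Signs of the difference between imatinib and BCR/ABL turned without BCR/ABL replicate 2 for Mcm5, Mcm7 and Birc5, without imatinib replicate 1 for Birc5, and without imatinib replicate 2 for Mcm2, Mcm5, Mcm7, Ccna2 and, against vector, Cdt1. The ranges over left-out arrays were -0.66 to 0.019 for Mcm2, -0.52 to 0.15 for Mcm5, -0.23 to 0.084 for Mcm7, -0.055 to 0.17 for Birc5, -0.44 to 0.049 for Ccna2, and -0.54 to 0.061 for Cdt1. Where an arm had 1 array it was assumed to vary like the others. With the replicate number as a block 9 probe sets were called in imatinib against vector. The actin and Gapdh control ratios were higher on replicate 1 in every group. The numbers were not taken as pairs, since same-numbered deviations correlated at -0.08, 0.16 and 0.146. The cause of these shifts was not tested beyond what each setting changes. Detection calls were not used here, so dim values such as those of Tyms cannot be separated from background.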
